A study of Mus musculus with 18 samples.

Results

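The oligoadenylate synthetase (OAS) genes were examined in a mouse brown adipocyte line in which the lipase activator ABHD5 was knocked down or re-expressed. Oas1a, Oas1b, Oas1c, Oas1g, Oas2, Oas3, Oasl1 and Oasl2 were taken by symbol from a table of 17672 genes, which gave 8 members. Only 6 of them had enough counts to be tested among the 10178 genes tested, and Oas1c and Oas3 did not. The family was chosen for its difference between cells with and without doxycycline (Dox) in these same libraries, so that difference is described here and no p is given for it. The 6 members tested were higher with Dox under vehicle, isoproterenol and SR-3420 alike, for example by 10.6-fold for Oasl2 and 11.7-fold for Oas1b under vehicle.

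All cells came from 1 immortalised line of mouse brown preadipocytes, differentiated in culture. Every group carried a lentiviral shRNA against Abhd5 and a Dox-inducible, shRNA-resistant ABHD5 tagged with mCherry. Cells without Dox are labelled ABHD5 KD and cells given Dox (1 µg/ml, 24 to 48 h by the labels, 24 h in the description of this experiment by the study) are labelled WT, so both carry the knockdown construct. Each state was stimulated for 3 h with DMSO, with 10 nM isoproterenol (ISO), a β-adrenergic agonist, or with 20 µM SR-3420, a synthetic ligand of ABHD5 that sets off lipolysis, in 3 replicates per group and 18 libraries. The effect of Dox itself, of the mCherry-tagged protein and of ABHD5 cannot be told apart here, because no library had Dox without the construct. The replicates are described by the study as independent experiments.

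OAS proteins are interferon-induced sensors of double-stranded RNA. When they bind it, the active members join ATP into 2′-5′-linked oligoadenylates (2-5A), which act as a second messenger of antiviral defence and lead to the cleavage of cellular and viral RNA. Genes of the family are commonly switched on by interferon through a transcription factor complex that contains STAT2 and IRF9 and binds a sequence called the interferon-stimulated response element.

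The values were deposited read counts per gene. For 72.6% of 16536 genes the counted length beside them was within 10% of the length of the introns, and for 2.3% within 10% of that of the exons, as for reads in introns, which follow unspliced RNA. The study's methods name counting over genes, so whether exon reads are included is uncertain. Reads of the ABHD5 construct could be counted only outside introns if it holds none, which the study does not state. The rise of Abhd5 given below would then include such reads, as far as it comes from the construct. Library totals ran from 689910 to 1956565 counts with a median of 1145729. Levels are given as CPM, counts set to a common library size after the totals were scaled by trimmed means (TMM). SR-3420 with Dox replicate 1 stood apart, with 35.6% of its counts in 10 genes against 16.3% to 26.5% elsewhere. Abhd5, whose counts do not separate the endogenous gene from the construct, had 46.8 to 55.3 CPM in DMSO without Dox and 481 to 651 CPM with Dox, and its log2 difference was 3.46 in DMSO, 2.48 in ISO and 3.20 in SR-3420. The libraries therefore followed their Dox labels. Of the 10 brown adipocyte markers listed, 8 were in the table, none of them at 0 throughout, and their summed level was 1713 to 2652 CPM without Dox and 2119 to 3789 CPM with Dox.

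The 10 genes of the Oas1, Oas2 and Oas3 cluster lay within 191.3 kb of chromosome 5, between 121180342 and 121371656 on mm9. Oas2 (NM_145227, 121180342 to 121199857) and Oas3 (NM_145226, 121203107 to 121227668) lay at its left end on the minus strand. The next members, past Oas1e (not a member), were Oas1c (NM_033541, 121250208 to 121262523, minus strand) and Oas1b (NM_001083925, 121262647 to 121274169, plus strand), whose starts were 124 bases apart and pointed away from each other. Farther right, Oas1g (NM_011852, 121326151 to 121337607) and Oas1a (NM_145211, 121346266 to 121357534) were both on the minus strand. Oasl2 (NM_011854, 115346943 to 115362254) and Oasl1 (NM_145209, 115373249 to 115387920) formed a separate pair on the plus strand that spanned 41.0 kb, 5.79 Mb from the cluster. Only Oasl1 overlapped another annotated gene, Gm13822, by 38 bases on the other strand.

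Promoters of 6 of the 8 members were matched by symbol in RefSeq sequences of GRCm38.p6, each from 250 bases before to 50 bases after the start. The interferon-stimulated response element core was searched as GAAA, 2 bases of any kind and GAAA in a row, on both strands. It was in 3.44% of 32851 mouse promoters of the same length, and in those of Oas1a, Oas1g, Oas1c and Oas3 among the 6. The 130 bases before the start of these 4 genes and of Oasl2, which had no match and the highest level, are shown to compare the matches and their positions. Capitals mark the matches, in 5′ to 3′ order along the gene.
Oas1a, chr5:120907526-120907655, minus strand: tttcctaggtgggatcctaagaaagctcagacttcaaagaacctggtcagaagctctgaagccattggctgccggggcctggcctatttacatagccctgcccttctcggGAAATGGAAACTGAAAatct
Oas1g, chr5:120887614-120887743, minus strand: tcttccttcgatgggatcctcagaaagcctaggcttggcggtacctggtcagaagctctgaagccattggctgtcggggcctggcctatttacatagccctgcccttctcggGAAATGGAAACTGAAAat
Oas1c, chr5:120812515-120812644, minus strand: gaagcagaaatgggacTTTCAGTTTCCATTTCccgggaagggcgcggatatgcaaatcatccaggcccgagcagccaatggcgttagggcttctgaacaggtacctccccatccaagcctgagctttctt
Oas3, chr5:120777660-120777789, minus strand: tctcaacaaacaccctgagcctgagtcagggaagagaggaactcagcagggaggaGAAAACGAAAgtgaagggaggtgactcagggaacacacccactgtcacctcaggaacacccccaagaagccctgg
Oasl2, chr5:114896804-114896933, plus strand: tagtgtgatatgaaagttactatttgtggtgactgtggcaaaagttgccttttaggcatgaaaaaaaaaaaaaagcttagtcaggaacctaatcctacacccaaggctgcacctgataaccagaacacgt

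Oas1a and Oas1g shared the same 16-base run, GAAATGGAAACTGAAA, made of 2 overlapping matches. It lay at bases -20 to -5 before the start of Oas1a and at bases -18 to -3 before that of Oas1g. Oas1c held the reverse complement of this run, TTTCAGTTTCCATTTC, at bases -114 to -99. On mm9 the starts of Oas1c and Oas1b were 124 bases apart and pointed away from each other. If both starts hold in this build, the run also lay before the start of Oas1b, and nearer to it than to that of Oas1c. On the strand of Oas1b it reads as in Oas1a. Oas1b had no promoter entry, so its own window was not searched. Oas3 held a single match, GAAAACGAAA, at bases -75 to -66. The 300-base promoters of Oas1a and Oas1g were 85.3% identical, whereas the other pairs among the 6 ranged from 45.9% to 51.6%. A second core, TTCNNNGAA, known from interferon-γ responses as the gamma-activated site, was in 8.3% of all promoters and in Oas1a alone among the 6 (TTCAAAGAA, bases -98 to -90). A match of letters is a description and does not show binding, and the absence of one in Oasl1 and Oasl2 says only that these letters were not in this window.

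Oas1b, known in mice as the flavivirus resistance gene, had the most counts of the Oas1 genes. In DMSO its 3 libraries had 15.9, 22.9 and 18.1 CPM without Dox and 152, 252 and 263 CPM with Dox. In ISO they had 21.5, 29.5 and 11.2 CPM without Dox and 141, 253 and 253 CPM with Dox. In SR-3420 they had 21.9, 43.8 and 30.4 CPM without Dox and 136, 255 and 278 CPM with Dox. Every library with Dox was above every library without it, and replicate 1 was the lowest of each Dox group. In bulk RNA, fewer cells with a transcript and less of it per cell cannot be told apart. The difference was 3.55 on the log2 scale (SE 0.34, n = 3 per group) in DMSO, 3.42 (SE 0.32) in ISO and 2.78 (SE 0.28) in SR-3420. Without SR-3420 with Dox replicate 1, the last value was 3.05.

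Oas1a and Oas1g, which encode active synthetases, were near 0 without Dox. For Oas1a the counts in DMSO were 1, 1 and 0 without Dox and 22, 19 and 30 with Dox. In ISO they were 0, 1 and 0 without Dox and 18, 43 and 32 with Dox. In SR-3420 they were 3, 3 and 3 without Dox and 9, 29 and 25 with Dox. The groups did not overlap under any stimulation, but the sums without Dox were at most 9 counts. The ratio of pooled Oas1a counts, each set against the TMM-scaled totals of its group, was 25.7 (95% counting interval 6.86 to 216) in DMSO. It was 86.6 (15.2 to 3455) in ISO and 10.5 (5.20 to 24.0) in SR-3420. The interval in ISO was the widest, with a single count without Dox.

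Oas1g repeated this picture at a lower level. Its counts in DMSO were 1, 1 and 0 without Dox and 15, 12 and 18 with Dox. In ISO they were 1, 1 and 2 without Dox and 12, 21 and 15 with Dox. In SR-3420 they were 0, 4 and 2 without Dox and 8, 14 and 18 with Dox. Again no Dox library fell within the range of the libraries without it, and the pooled ratio was 16.3 (4.26 to 139) in DMSO, 11.2 (4.09 to 42.7) in ISO and 10.0 (4.21 to 28.9) in SR-3420. The fitted log2 difference in SR-3420 was 3.23 (SE 0.60), but 2.61 without SR-3420 without Dox replicate 1 and 4.05 without replicate 2 of that group. Oas1a and Oas1g are close paralogs: 23.5% of the 50-base windows of the Oas1a gene occurred in Oas1g and 23.1% of those of Oas1g in Oas1a. How reads from these windows were shared between the genes was not stated, so the split between them is uncertain. The corresponding share with any other OAS gene was 7.9% for Oas1c, 3.2% for Oas1b and at most 0.2% for the remaining members.

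Oas1c, the neighbour of Oas1b across the 124 bases, stayed low. Its counts in DMSO were 7, 0 and 2 without Dox and 8, 6 and 11 with Dox. In ISO they were 1, 2 and 2 without Dox and 1, 7 and 0 with Dox. In SR-3420 they were 1, 6 and 2 without Dox and 9, 8 and 6 with Dox. In CPM the groups overlapped in DMSO and ISO and were apart in SR-3420. The pooled ratio was 2.01 (0.908 to 4.90) in DMSO, 1.49 (0.430 to 5.79) in ISO and 3.83 (1.71 to 9.42) in SR-3420. Replicate 1 held 7 of the 9 counts in DMSO without Dox, and replicate 2 held 7 of the 8 in ISO with Dox. The ratios in DMSO and ISO therefore lean on 1 library each.

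Oas2, which makes longer 2-5A chains than the Oas1 enzymes, had counts of 4, 4 and 0 in DMSO without Dox and 40, 43 and 31 with Dox. In ISO the counts were 0, 3 and 0 without Dox and 11, 47 and 30 with Dox. In SR-3420 they were 1, 4 and 2 without Dox and 31, 42 and 61 with Dox. All Dox libraries were higher, and the lowest was ISO with Dox replicate 1 at 9.10 CPM. The log2 difference was 3.42 (SE 0.63) in DMSO and 4.76 (SE 0.60) in SR-3420. In ISO, where the 3 libraries without Dox held 3 counts together, the pooled ratio was 27.3 (9.04 to 135). Without DMSO without Dox replicate 3, which had no count, the value in DMSO was 2.82.

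Oas3, a long member of several OAS units, was close to undetected. It had no count in the 6 libraries of DMSO and ISO without Dox and 1 count in SR-3420 without Dox. With Dox its counts were 1, 4 and 0 in DMSO, 0, 3 and 0 in ISO and 0, 4 and 1 in SR-3420. Replicate 2 held most of them in each Dox group. A sum of 0 allows up to 3 counts per group, the libraries of both states overlapped under each stimulation, and no ratio is given for DMSO and ISO. In SR-3420 the pooled ratio was 7.50 (0.839 to 355). The intervals and this limit cover counting error only.

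The OAS-like genes lay in their own pair and differed from each other in level. Oasl2, whose protein retains synthetase activity, was the most abundant member. In DMSO it had 24.7, 58.0 and 26.2 CPM without Dox and 225, 466 and 431 CPM with Dox. In ISO it had 7.51, 48.2 and 20.9 CPM without Dox and 204, 441 and 330 CPM with Dox. In SR-3420 it had 21.9, 54.2 and 28.0 CPM without Dox and 215, 590 and 441 CPM with Dox. In each group without Dox replicate 2 was the highest, in each group with Dox replicate 1 was the lowest, and the groups with and without Dox did not overlap. The log2 difference was 3.41 (SE 0.42) in DMSO, 3.66 (SE 0.43) in ISO and 3.56 (SE 0.39) in SR-3420, or 3.88 without SR-3420 with Dox replicate 1. Without ISO without Dox replicate 2, the highest of its group, the value in ISO was 4.43.

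Oasl1, an inactive synthetase known to hold back translation of the interferon regulator Irf7, had the smallest difference of the 6 members tested. In DMSO it had 3.53, 2.70 and 3.02 CPM without Dox and 8.60, 14.5 and 25.6 CPM with Dox. In ISO it had 5.37, 7.87 and 3.72 CPM without Dox and 20.7, 37.5 and 36.3 CPM with Dox. In SR-3420 it had 3.46, 8.65 and 3.89 CPM without Dox and 19.2, 26.6 and 24.8 CPM with Dox. The Dox libraries were again all higher than those without Dox of the same stimulation. The log2 difference was 2.20 (SE 0.53) in DMSO, 2.49 (SE 0.41) in ISO and 2.08 (SE 0.40) in SR-3420. Without SR-3420 without Dox replicate 2, the last value was 2.65.

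**Figure D1:**
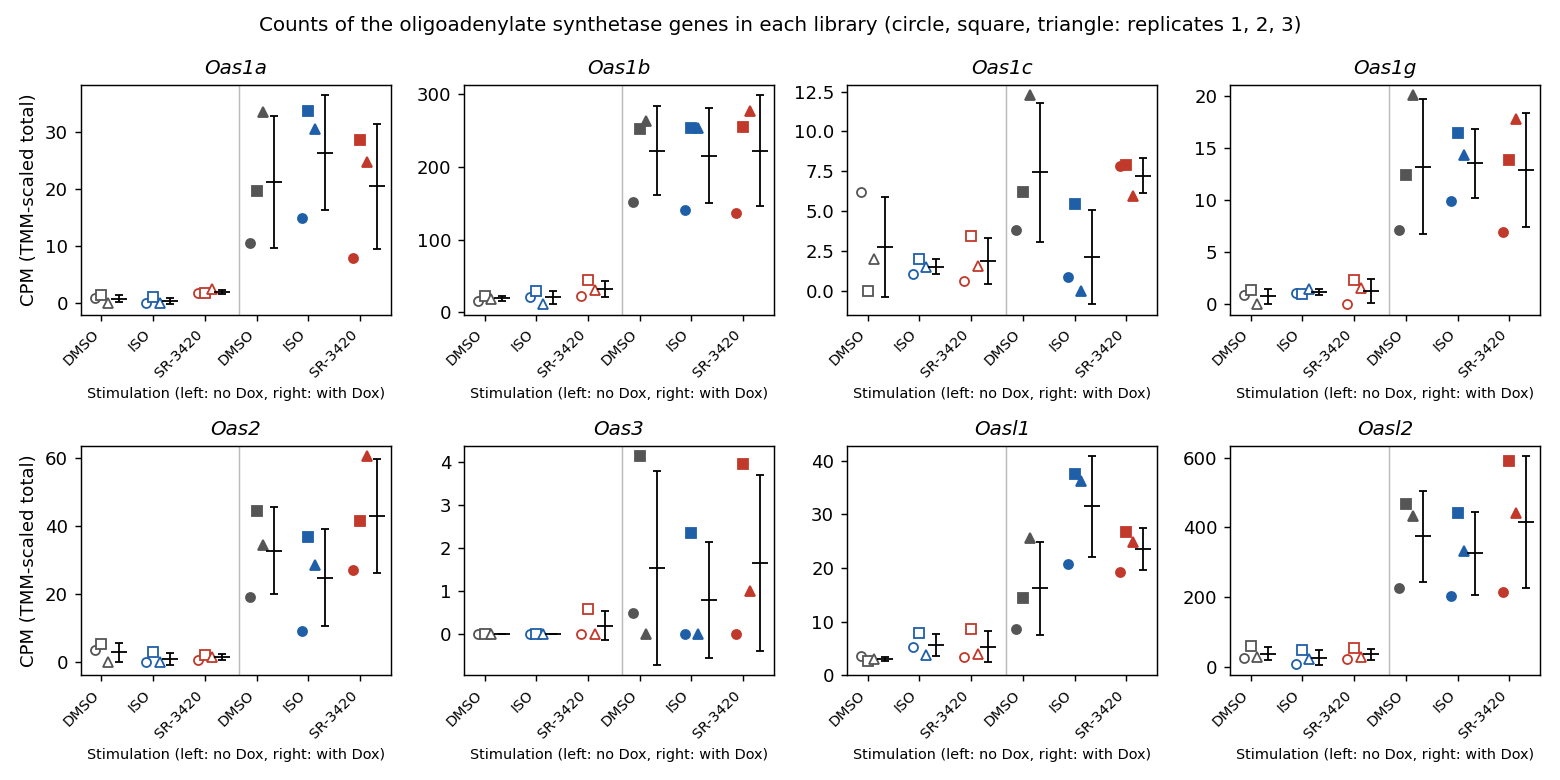
CPM of each member (y axis, on the TMM-scaled total) in the 6 groups, with open symbols for libraries without Dox, filled symbols for libraries with Dox, symbol shape for the replicate, and a bar for the mean with its SD (n = 3). For Oas1a, Oas1b, Oas1g, Oas2, Oasl1 and Oasl2 every filled symbol is above every open one of the same stimulation, whereas Oas1c overlaps in DMSO and ISO and Oas3 reaches no more than 4.13 CPM.

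Levels of different genes were compared only per length, as CPM per kb of the counted length, which may differ from the length the reads came from. In DMSO with Dox, Oasl2 stood at 39.0 ± 13.6 (SD, n = 3) and Oas1b at 23.0 ± 6.33. Then came Oas2 at 2.37 ± 0.92, Oas1a at 2.26 ± 1.23, Oasl1 at 1.47 ± 0.78, Oas1g at 1.40 ± 0.69, Oas1c at 0.84 ± 0.49 and Oas3 at 0.088 ± 0.13. The ranges of mean ± SD of neighbours in this order overlapped, except from Oas1b to Oas2 and from Oas1c to Oas3. Without Dox, Oasl2 (3.79 ± 1.97) and Oas1b (1.96 ± 0.37) were again on top, and the other members were at 0.31 or less. The remaining 4 genes of the cluster were not members and hardly counted, with Oas1d at 0 and Oas1f at a single count over the 18 libraries.

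**Figure D2:**
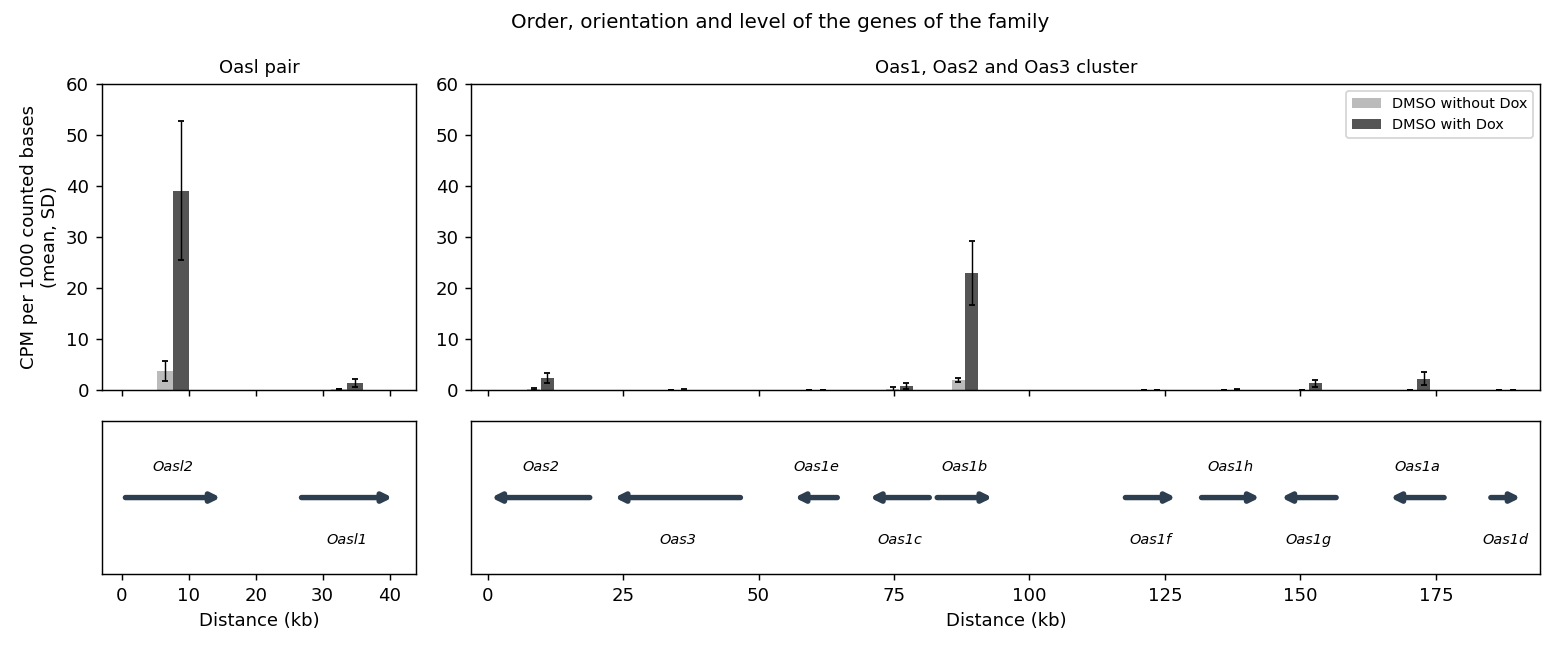
Order and orientation of the OAS genes (lower panels, arrows in the direction of transcription, x axis in kb from the left end of each locus) and mean CPM per kb of counted length in DMSO without Dox (light bars) and with Dox (dark bars), with the SD (n = 3). Oasl2 and Oas1b are the tallest bars at 39.0 and 23.0 with Dox, and Oas1c next to Oas1b reaches 0.84.

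All 6 members tested were called higher with Dox in each stimulation, where a call means an adjusted p of 0.05 or less by edgeR and a log2 change of at least 1. The count in DMSO was 5, without Oasl1, when any 1 library of DMSO without Dox or replicate 2 or 3 of DMSO with Dox was left out, and limma-voom called 4, without Oasl1 and Oas2. By the same rule 0.874% of the 10178 genes were called higher in DMSO, 3.11% in ISO and 2.44% in SR-3420. Every Dox library was above every library without Dox for 7.97%, 14.7% and 15.4% of all genes, and for all 6 members tested in each case. The members were chosen on these contrasts, and Oas1a, Oas1g, Oas2 and Oasl1 passed the filter on low counts only through their Dox groups, so that they had to differ. Nothing is read from these counts. The 3 contrasts were made on different libraries, and their values are set side by side in the plot of the Dox effect.

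**Figure D3:**
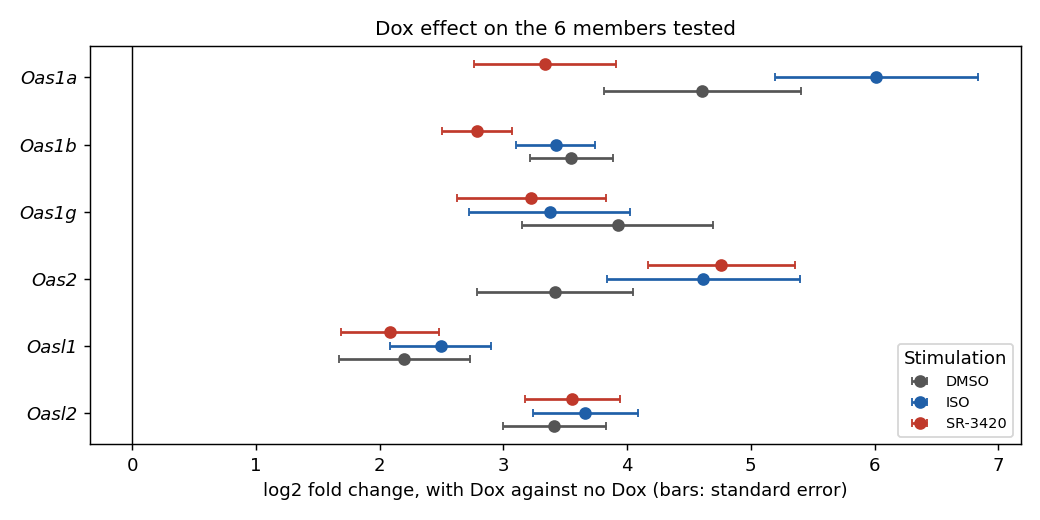
Dox effect (x axis, log2 fold change with Dox against no Dox, bars for the standard error) on the 6 members tested, in DMSO (grey), ISO (blue) and SR-3420 (red). All 18 values lie right of 0, from 2.08 for Oasl1 in SR-3420 to 6.02 for Oas1a in ISO, a value that rests on 1 count without Dox.

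The Dox effects under the 3 stimulations, which chose the family, are also set against each other here as a description with no test. For Oas1b the Dox effect was smaller in SR-3420 than in DMSO by a log2 difference of -0.76 (SE 0.47), and for Oasl2 it differed by 0.15 (SE 0.59). With ISO the corresponding values were -0.13 (SE 0.52) for Oas1b and 0.25 (SE 0.63) for Oasl2, or 1.01 for Oasl2 without ISO without Dox replicate 2. For Oas1a the standard error of the difference with ISO was 1.88, so these counts could not resolve even large differences for the members near 0 without Dox.

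Responses to stimulation were compared within each Dox state, on contrasts that did not choose the members but that share libraries with those that did. In cells without Dox, Oas1a, Oas1g, Oas2 and Oasl1 had 1 to 18 counts per group under DMSO and ISO, so that a missing call says little for them. None of the 6 members was called for ISO (edgeR, adjusted p from 0.387 to 0.893). No member had an unadjusted p under 0.05 there, none was called by DESeq2 or limma-voom, and 5.82% of all genes were called higher and 5.08% lower. For Oas1b the log2 change was 0.11 (SE 0.46, 95% interval -0.79 to 1.00), and for Oasl2 it was -0.43 (SE 0.54, interval -1.49 to 0.63). ISO without Dox replicate 1, at 7.51 CPM, was the lowest library of Oasl2, and the change was -0.05 without it and -1.18 without replicate 2 of that group.

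With Dox, Oasl1 was the only one of the 6 members tested that was called for ISO. Its level was 31.5 ± 9.39 CPM (SD, n = 3) in ISO and 16.2 ± 8.66 CPM in DMSO, a log2 change of 1.09 (SE 0.33, edgeR adjusted p = 0.0132), while 6.22% of all genes were called higher and 6.89% lower. The replicates overlapped, since DMSO with Dox replicate 3 at 25.6 CPM was above ISO with Dox replicate 1 at 20.7 CPM. The call did not hold without DMSO with Dox replicate 1 (0.66, edgeR adjusted p = 0.169), without ISO with Dox replicate 2 (0.95, adjusted p = 0.0542) or without ISO with Dox replicate 3 (0.99, adjusted p = 0.0505). The log2 change of Oasl1 in cells without Dox was 0.79 (SE 0.65, 95% interval -0.48 to 2.06), from 9 and 18 counts, and whether the response depended on Dox was not resolved. The other 5 members had log2 changes between -0.31 for Oas2 and 0.43 for Oas1a with ISO in the presence of Dox. For Oas1b this change was -0.02 (95% interval -0.49 to 0.45) and for Oasl2 -0.18 (-0.82 to 0.45).

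Without Dox, Oas1a, Oas1g, Oas2 and Oasl1 had 2 to 26 counts per group under DMSO and SR-3420, and a missing call again says little for them. No member was called for SR-3420 without Dox, where edgeR gave adjusted p from 0.601 to 0.996, or with Dox, where it gave 0.268 to 0.969. In both states no member had an unadjusted p under 0.05, and neither DESeq2 nor limma-voom called one. Of all genes, 0.236% were called higher and 0.0295% lower without Dox, and 2.1% and 1% with Dox. The log2 change of Oas1b without Dox was 0.79 (SE 0.40), with 32.0 ± 11.1 CPM in SR-3420 against 19.0 ± 3.61 CPM in DMSO, and it did not pass the correction (edgeR adjusted p = 0.601). SR-3420 without Dox replicate 2, at 43.8 CPM, was its highest library, and replicate 1 lay within the DMSO range. With Dox the change of Oas1b was 0.02 (95% interval -0.45 to 0.49), that of Oasl2 was 0.17 (-0.46 to 0.80) and that of Oasl1 was 0.66 (-0.03 to 1.35).

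**Figure D4:**
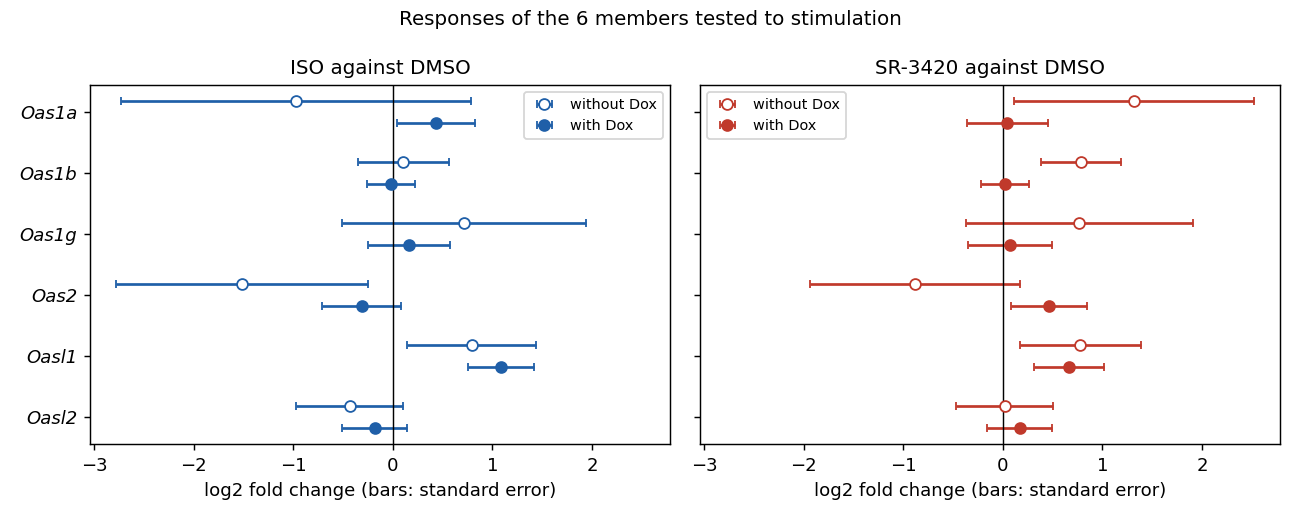
Response of the 6 members tested to ISO (left) and SR-3420 (right) against DMSO (x axis, log2 fold change, bars for the standard error), without Dox (open) and with Dox (filled). The filled point of Oasl1 under ISO at 1.09 is the one change called, and the bars of Oas1a, Oas1g and Oas2 without Dox are the widest, from at most 9 counts per group.

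The members also varied together between replicates of a group. After each library was set against its group mean, the mean log2 deviation of the 6 members was lowest in replicate 1 of the 3 Dox groups (-0.71 in DMSO, -0.67 in ISO and -0.70 in SR-3420). In the groups without Dox it was highest in replicate 2 (0.69, 0.89 and 0.62). All 15 pairs of members had a positive correlation of these deviations across the 18 libraries, from r = 0.52 to 0.85 with a median of 0.62. The points share library, scaling and group means, so these correlations are descriptions only.

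Among other genes tied to 2-5A, 2 of the 3 listed were tested. Pde12, which degrades 2-5A, had 3 counts in DMSO without Dox and 3 with Dox over the 3 libraries and was not tested. Abce1, whose protein recycles ribosomes, had log2 differences with Dox of 0.13 in DMSO, 0.12 in ISO and 0.14 in SR-3420, and Akap7, whose protein can cleave 2-5A, had 0.30, 0.42 and -0.01. Neither of these was called with Dox.

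Sensors of nucleic acids and their partners, mostly for double-stranded RNA, were described next from a list of 11 genes, all tested. The list also held Mb21d1 and Tmem173, which act in the sensing of DNA. With Dox, 6 were called higher in DMSO, 6 in ISO and 7 in SR-3420, where 0.874%, 3.11% and 2.44% of all genes were. None was called lower, where 0.0197%, 1.55% and 0.963% of all genes were. Ddx58, the sensor RIG-I, differed by 2.67 on the log2 scale in DMSO, 3.16 in ISO and 2.60 in SR-3420, and Dhx58, its relative LGP2, by 3.44, 2.55 and 2.69. Ifih1 (MDA5) rose by 1.94 in DMSO, Zbp1 by 3.74, Eif2ak2, the kinase PKR, by 1.59, and Adar, which edits double-stranded RNA, by 2.32. Not called in DMSO were Mavs (-0.10), the adaptor of RIG-I and MDA5, Prkra (-0.52), Mb21d1 (-0.11), Tmem173 (0.55) and Tlr3 (1.08).

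Of 13 genes of interferon signalling listed, 11 were tested, and 3 were called higher in each stimulation, beside 0.874% of all genes in DMSO, 3.11% in ISO and 2.44% in SR-3420. In DMSO these were Stat2 (1.86) and Irf9 (2.00), parts of the complex named above, and Usp18 (3.48), a brake on the receptor. The receptor genes Ifnar1 (0.01) and Ifnar2 (0.49), the kinase Tyk2 (0.03) and the transcription factor gene Irf1 (0.90) were not called. Of 15 interferon effectors listed, 13 were tested. Against the same shares of all genes, 12 of these were called higher in DMSO, 12 in ISO and 13 in SR-3420. Ifit3 stood at 4.51, Rsad2 at 4.40 and Mx1 at 4.09 in DMSO. Without Dox, Mx1 and Rsad2 had at most 5 and 10 counts in any library. They passed the filter on low counts only through their Dox groups, so that they had to differ. Median log2 differences in DMSO were 3.45 over the effectors, 1.59 over the sensors and 0.28 over the signalling genes, against 0.0027 over all genes tested. Of the 8 interferon ligands listed, 3 were in the table analysed, Ifnl2, Ifnl3 and Ifng, and these had no count in any library. The other 5 were not in it, so the missing counts say nothing about them. These lists were drawn up with results of the same libraries known, and they are not independent evidence on the family.

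**Figure D5:**
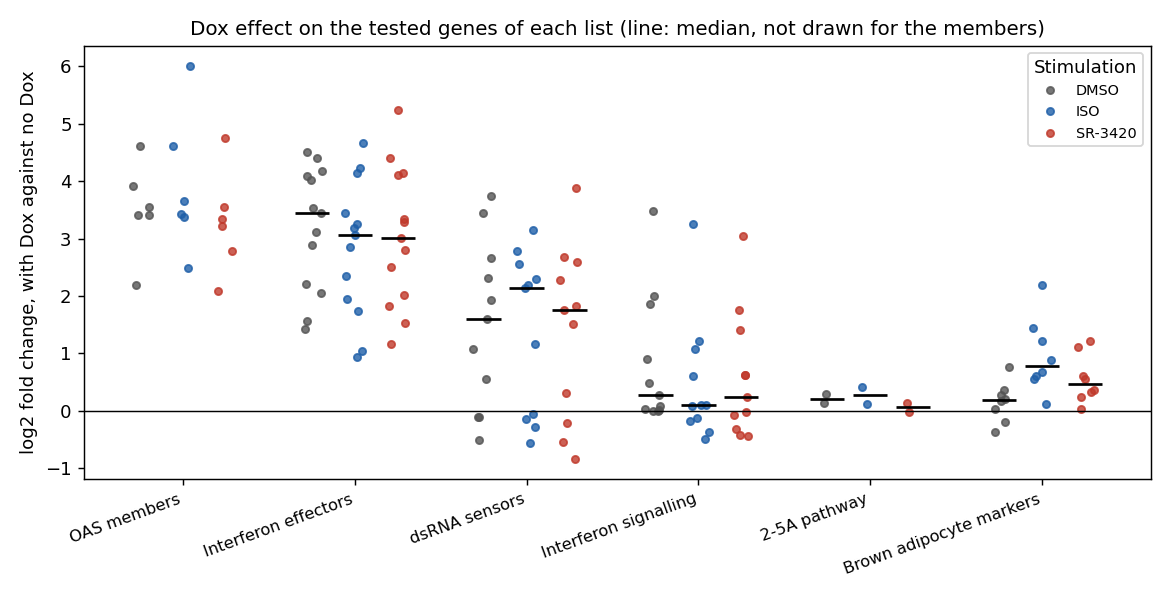
Dox effect (y axis, log2 fold change) on each tested gene of the OAS family and of 5 lists, in DMSO (grey), ISO (blue) and SR-3420 (red), with a line at the median of each list except the members. The effectors lie between 0.94 and 5.24, whereas both 2-5A pathway genes lie between -0.01 and 0.42.

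The response-element core was in the promoters of 7 of 12 effectors, 3 of 7 sensors and 2 of 12 signalling genes that had a promoter entry, beside 4 of 6 OAS members. Of all 27025 genes with an entry, 3.99% had it. Over all 18 libraries, the genes outside the family whose log2 CPM was most like the mean of the 6 members were Adar (Pearson r = 0.987), Xaf1 (0.982), Usp18 (0.981), Phf11d (0.979), Eif2ak2 (0.978), Ifit3 (0.976), Dhx58 (0.976), Mx2 (0.974), Parp12 (0.973) and Bst2 (0.973). All of these genes also differed between the Dox states, which the 18 points share. Within groups, the correlation of their deviations with that of the members ran from 0.69 for Bst2 to 0.94 for Xaf1.

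Markers of other cell types were summed in the same libraries. The 9 leukocyte markers in the table summed to 6.70 to 21.9 CPM without Dox and 11.5 to 22.0 CPM with Dox, while the 8 members summed to 36.5 to 117 CPM and 400 to 967 CPM. Ptprc and Csf1r, which define leukocytes and macrophages, had 0 and 2 counts over the 3 DMSO libraries without Dox and 2 and 3 with Dox. Cd68, the only marker of the 9 that was tested, had 30 counts in DMSO without Dox and 55 with Dox. Its log2 difference of 0.39 was not called. Preadipocyte and fibroblast markers summed to 495 to 1162 CPM over all libraries and endothelial markers to 5.30 to 25.6 CPM. Brown adipocyte markers moved with Dox under stimulation, where 3 of the 8 tested were called higher in ISO and 2 in SR-3420 but none in DMSO (3.11%, 2.44% and 0.874% of all genes), and their median log2 difference was 0.78, 0.46 and 0.19. In DMSO the marker sums were 1713 to 1927 CPM without Dox and 2119 to 2228 CPM with Dox, and these ranges did not overlap. The Dox difference in DMSO was 3.55 for Oas1b and 3.41 for Oasl2. The part of the brown adipocyte markers in the values of the OAS genes was not tested.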

How the data were processed

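The authors aligned reads to mm9 with STAR 2.4.2a, kept 1 read per position and length (HOMER) and used iRNA-seq for counting. The values they deposited were raw whole-number counts of 18 libraries, 3 per group, assigned from sample titles, with a counted length per gene. Strand use was not stated. The fit was edgeR 4.0.16 (R 4.3.3, quasi-likelihood, two-sided) with TMM factors of 0.769 to 1.13, filterByExpr (10178 genes kept, 7494 left out) and 1 mean per group. Adjusted p-values follow Benjamini-Hochberg across the genes kept. Genes were called at adjusted p of up to 0.05 with log2 changes of 1 or larger in size. Standard errors came from the F statistic, and the 95% intervals of log2 changes are 1.96 standard errors wide on each side. Ratios of pooled counts carry exact binomial intervals. CPM used the TMM-scaled total, and a pseudocount of 0.5 entered the correlations.

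The members and gene lists were chosen with earlier results of these data known. Named genes were the members, Abhd5, the listed genes and the 10 genes most alike to the members. No 2 replicates agreed within sampling noise (chi-square per degree of freedom from 2.23 to 22.6). Alternatives were RLE factors, library totals only, other count filters, DESeq2 1.42.0, limma-voom (limma 3.58.1), a replicate block, fewer groups and leaving out each library. The scripts were tested on simulated data. Promoters were from RefSeq (GRCm38.p6), read with Python 3.11.15. Some listed genes are not reported here.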

Additional observations from a re-analysis of the deposited data

How the results depend on the processing

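The settings tried were other scaling (RLE factors or library totals only), other count filters, no fold change limit, DESeq2, limma-voom, a replicate block, only the groups of a contrast, and leaving out each library of a contrast in turn. No member changed direction in a called comparison. When at least 10 counts were required in every library, the members called higher with Dox numbered 1 in DMSO, 1 in ISO and 1 in SR-3420, because Oas1b was then the only member tested. With no filter, Oas1c was also called in SR-3420, which gave 7. In DMSO, limma-voom called 4 members, without Oasl1 and Oas2. Leaving out 1 library gave 5 to 6 in DMSO, where Oasl1 was lost without any 1 library of DMSO without Dox or without replicate 2 or 3 with Dox, and 6 in ISO and SR-3420. For ISO with Dox, the members called higher numbered 0 with library totals only, where Oasl1 fell to 0.94, and 0 with at least 10 counts, where it was not tested, and 0 to 1 when 1 library was left out. The adjusted p of Oasl1 there ran from 0.00175 to 0.169. With library totals only, the median log2 change of all genes was -0.22 for Dox in SR-3420 and -0.15 for ISO with Dox. Without ISO without Dox replicate 2, the Dox effect in ISO was 8.01 for Oas1a and 7.93 for Oas2, whose remaining libraries had no count.

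Libraries with the same replicate number deviated together in part: 11 of 15 pairs of replicate 1, 15 of replicate 2 and 8 of replicate 3 had a correlation over 0.1, and 18 of 18 libraries correlated best with their own number. The labels do not say what a number shares, so the numbers were not taken as pairing. With the replicate block, 6 members were called higher with Dox in each stimulation and Oasl1 kept its call for ISO with Dox (1.03, edgeR adjusted p = 0.00285).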
